A study of Rattus norvegicus with 23 samples.

Results

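Amino acid transporters of the solute carrier families SLC1, SLC3, SLC6, SLC7, SLC36, SLC38 and SLC43 were followed in rat kidney across strain and kidney number. The members were all genes whose symbol belongs to these families, leaving out the taurine transporter Slc6a6 and the betaine transporter Slc6a12, and each gene was read at its probe set with the highest mean. The rule found 52 of the 14217 genes with a symbol of their own, covered by 70 probe sets. It also took in Slc7a6os by its name, although that gene is named only for lying opposite Slc7a6 and is not known as a transporter. Slc6a19, the main luminal carrier of neutral amino acids, was not analysed here.

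The study asked about the origin of proteinuria, and measured total kidney RNA of male Sabra rats on Affymetrix arrays. SBH/y is the strain known to be prone to salt-induced hypertension, and SBN/y is its resistant counterpart. The 4 groups were uninephrectomized SBH/y rats with 1 kidney (6 arrays), sham-operated SBH/y rats with 2 kidneys (6 arrays), uninephrectomized SBN/y rats with 1 kidney (6 arrays) and sham-operated SBN/y rats with 2 kidneys (5 arrays). All ate standard chow, and kidneys were collected when rats were 4 months old, with 3 months elapsed since the operation. The strains are separate inbred lines that differ across the genome, so a strain difference cannot be tied to hypertension, and the labels do not say whether each array is a separate rat. Values are log2 signals normalized by the authors, and a difference of 1 is a doubling.

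In the kidney, nearly all filtered amino acids are taken back by the proximal tubule. Carriers in the luminal brush border bring them in with sodium or by exchange, and a different set in the basolateral membrane passes them on to the blood. Several SLC7 carriers work only when bound to a heavy chain, Slc3a1 (rBAT) at the luminal side or Slc3a2 at the basolateral side. Loss of SLC3A1 or SLC7A9 in humans causes cystinuria, and loss of SLC7A7 causes lysinuric protein intolerance. When amino acids run short, the transcription factor Atf4 raises transporters and enzymes of amino acid synthesis.

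Of the 52 members, 28 had a mean at or above that of the median probe set (4.66) and 24 lay under it. The mean of 7 members lay between 2.14 and 3.13, the span of 4 Xist probe sets, which serve as a background reading in males. All 14 proximal tubule markers were measured, and their summed log2 signal was 136.9 to 140.5 in SBH/y with 1 kidney, 138.2 to 139.5 in SBH/y with 2 kidneys, 137.1 to 138.7 in SBN/y with 1 kidney and 137.4 to 138.8 in SBN/y with 2 kidneys. All 5 neuron and glia markers lay under the median probe set in every group. The difference between the 3' and 5' GAPDH probe sets, a sign of RNA integrity, averaged 0.533 ± 0.109 in SBH/y with 1 kidney, 0.46 ± 0.0559 in SBH/y with 2 kidneys, 0.451 ± 0.0427 in SBN/y with 1 kidney and 0.352 ± 0.032 in SBN/y with 2 kidneys (SD). With 2 kidneys this GAPDH difference was 0.404 to 0.531 in SBH/y, against 0.319 to 0.39 in SBN/y, so the strains did not overlap in it. In whole kidney, fewer cells of a type and less RNA per cell cannot be told apart.

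Uninephrectomy in SBH/y lowered the signal of 4 luminal carriers and of Slc6a17, and raised that of the basolateral carrier Slc7a7. These were 6 of 52 members (11.5%) at an adjusted p under 0.05 (limma, Benjamini-Hochberg over all probe sets), 1 higher and 5 lower. Among all genes 7.16% passed in this comparison, with 4.76% higher and 2.4% lower. At or above the median probe set, where all 6 lay, 6 of 28 members passed, beside 9.11% of such genes. The median difference of the 52 members was -0.03, against 0.00 for all genes. Of the 8 measured members of the luminal uptake list, 4 fell and 0 rose, with a median of -0.12.

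Slc7a13, a luminal carrier of aspartate, glutamate and cystine that pairs with Slc3a1 in the last segment of the proximal tubule, had the smallest adjusted p of the members. Its signal was 11.58 at the lowest, 11.62 at the median and 11.85 at the highest in SBH/y with 1 kidney, against 11.87, 11.96 and 12.05 in SBH/y with 2 kidneys. Each 1-kidney array of SBH/y was below each 2-kidney array, a separation that 4.31% of all genes showed in 1 direction or the other. The signal fell by 0.29 ± 0.06 (SE), or 0.815-fold, with an adjusted p of 0.00147. In SBN/y with 1 kidney the lowest, median and highest signals were 11.99, 12.06 and 12.12, and the 5 arrays of SBN/y with 2 kidneys read 12.27, 12.01, 12.25, 12.07 and 12.15. These groups overlapped, and the difference of -0.09 ± 0.06 was not past the threshold (adjusted p 0.815). RefSeq lists Slc7a12, Slc7a12l1, Slc7a13, Slc7a13-ps1 and Slc7a13-ps2 as copies of this family, and whether the probes tell them apart was not tested.

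**Figure D1:**
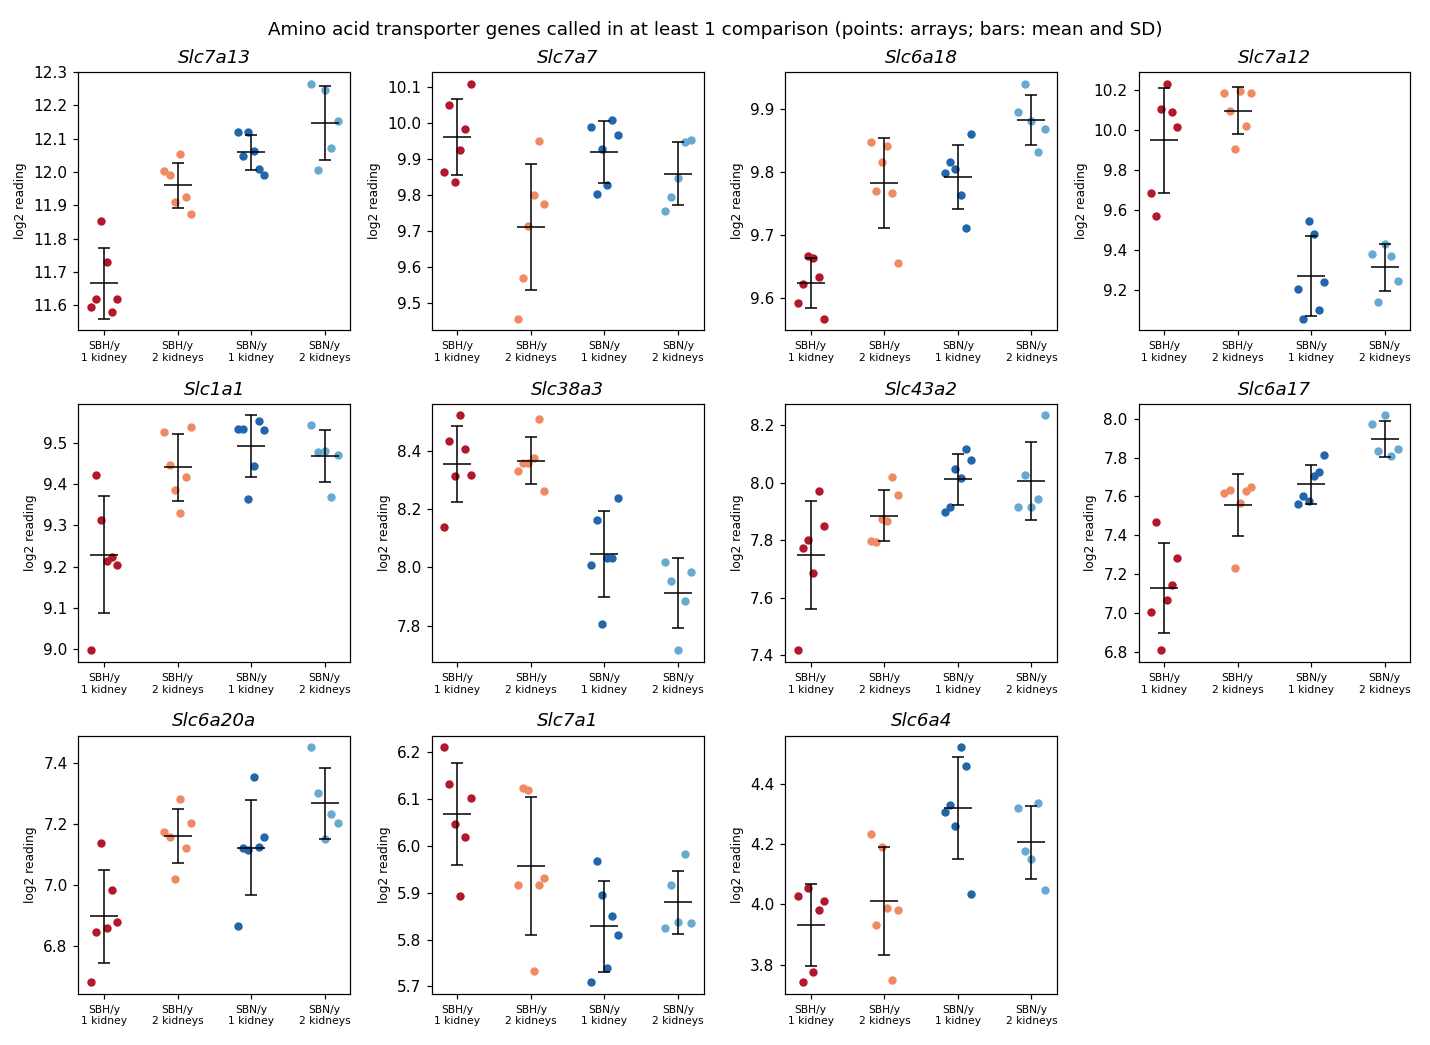
Log2 signal on each array (points) with group means and SD (bars) for the 11 amino acid transporter genes past the threshold in at least 1 comparison, by strain and kidney number. Slc7a13 in SBH/y with 1 kidney lies between 11.58 and 11.85, below every other group, and Slc7a12 is higher in SBH/y than in SBN/y whatever the kidney number.

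Slc1a1 carries glutamate, aspartate and cysteine across the brush border, and its human form is mutated in dicarboxylic aminoaciduria. In SBH/y with 1 kidney it ranged from 8.996 to 9.42 with a median of 9.22, against 9.33 to 9.54 with a median of 9.43 in SBH/y with 2 kidneys. The groups overlapped, and the signal fell by 0.21 ± 0.06 (adjusted p 0.0364). The gene's other probe set moved the same way and fell by 0.31 ± 0.06 (adjusted p 0.0024). In SBN/y the range was 9.36 to 9.55 with 1 kidney, against 9.54, 9.48, 9.48, 9.37 and 9.47 with 2 kidneys, a difference of 0.02 ± 0.06. The difference between the strains' responses was -0.24 ± 0.09 on this probe set (adjusted p 0.388) and -0.36 ± 0.09 on the other (adjusted p 0.104), neither past the threshold.

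Slc6a18 and Slc6a20a are sodium-dependent luminal carriers, Slc6a18 of glycine and other neutral amino acids and Slc6a20a of proline. The signal of Slc6a18 was 9.57 to 9.67 with a median of 9.63 in SBH/y with 1 kidney, against 9.65 to 9.85 with a median of 9.79 in SBH/y with 2 kidneys. It fell by 0.16 ± 0.05 (adjusted p 0.0374), a small change over ranges that nearly separate. Slc6a20a read 6.68 to 7.14 with a median of 6.87 in SBH/y with 1 kidney, against 7.02 to 7.28 with a median of 7.17 in SBH/y with 2 kidneys. Its signal fell by 0.26 ± 0.07 (adjusted p 0.0369), and on its other probe set by 0.32 ± 0.08 (adjusted p 0.0147). In SBN/y the differences of 1 minus 2 kidneys were -0.09 ± 0.05 for Slc6a18 and -0.15 ± 0.08 for Slc6a20a, neither past the threshold. The other probe set of Slc6a20a leaned the same way in SBN/y, at -0.22 ± 0.08 (adjusted p 0.454). Between the strains' responses Slc6a20a differed by -0.12 ± 0.11 (adjusted p 0.87), and by -0.097 ± 0.12 on the other probe set (adjusted p 0.912). Its fall in SBH/y was thus not shown to differ from the change in SBN/y.

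The remaining luminal carriers did not pass. Slc3a1, the heavy chain of Slc7a13 and Slc7a9, read 12.32 to 12.39 in SBH/y with 1 kidney, against 12.41 to 12.51 in SBH/y with 2 kidneys. Its groups did not overlap, but the difference was only -0.09 ± 0.04 (adjusted p 0.302). Slc7a9, the light chain that takes up cystine and dibasic amino acids, differed by 0.05 ± 0.05, and its means were 9.48 in SBH/y with 1 kidney and 9.43 in SBH/y with 2 kidneys. Slc36a1, a proton-coupled carrier of small amino acids, differed by -0.07. Slc36a2, with a mean of 3.44 and so under the median probe set, differed by -0.01.

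Slc7a7, the basolateral exchanger that releases dibasic amino acids when bound to Slc3a2, was the member that rose. Its signal was 9.84 to 10.11 with a median of 9.95 in SBH/y with 1 kidney, against 9.46 to 9.95 with a median of 9.74 in SBH/y with 2 kidneys. The groups overlapped, and the signal was higher by 0.25 ± 0.07, or 1.19-fold (adjusted p 0.033). Slc7a7 is also expressed by macrophages, and leukocyte markers were higher in the same comparison, as given with the markers further on. Its heavy chain Slc3a2 differed by 0.05 ± 0.04 (adjusted p 0.639). Of the 8 basolateral and heteromeric exchangers, 1 rose and 0 fell, with a median of 0.00, where 4.76% of all genes rose and 2.4% fell.

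Slc6a17 is known in neurons, where it carries neutral amino acids into synaptic vesicles. At its brightest probe set it read 6.81 to 7.47 with a median of 7.10 in SBH/y with 1 kidney, against 7.23 to 7.65 with a median of 7.62 in SBH/y with 2 kidneys. The ranges overlapped, and the signal fell by 0.43 ± 0.09 (adjusted p 0.00243). The gene's other 4 probe sets differed by -0.06, -0.07, -0.17 and -0.15 in the same comparison, and none passed. The result for Slc6a17 therefore belongs to 1 of its 5 probe sets.

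The count of 6 members in SBH/y was sensitive to single arrays. It was 2 without SBH/y 2-kidney replicate 1 or 2 or 1-kidney replicate 6, and 3 without SBH/y 2-kidney replicate 5 or 1-kidney replicate 1 or 2. Slc7a13 and Slc6a17 passed in all 23 fits that left out an array, while Slc1a1, Slc6a18, Slc6a20a and Slc7a7 each lost the call in 8, 8, 9 and 6 of them. With the GAPDH difference as a covariate the count was 3.

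**Figure D2:**
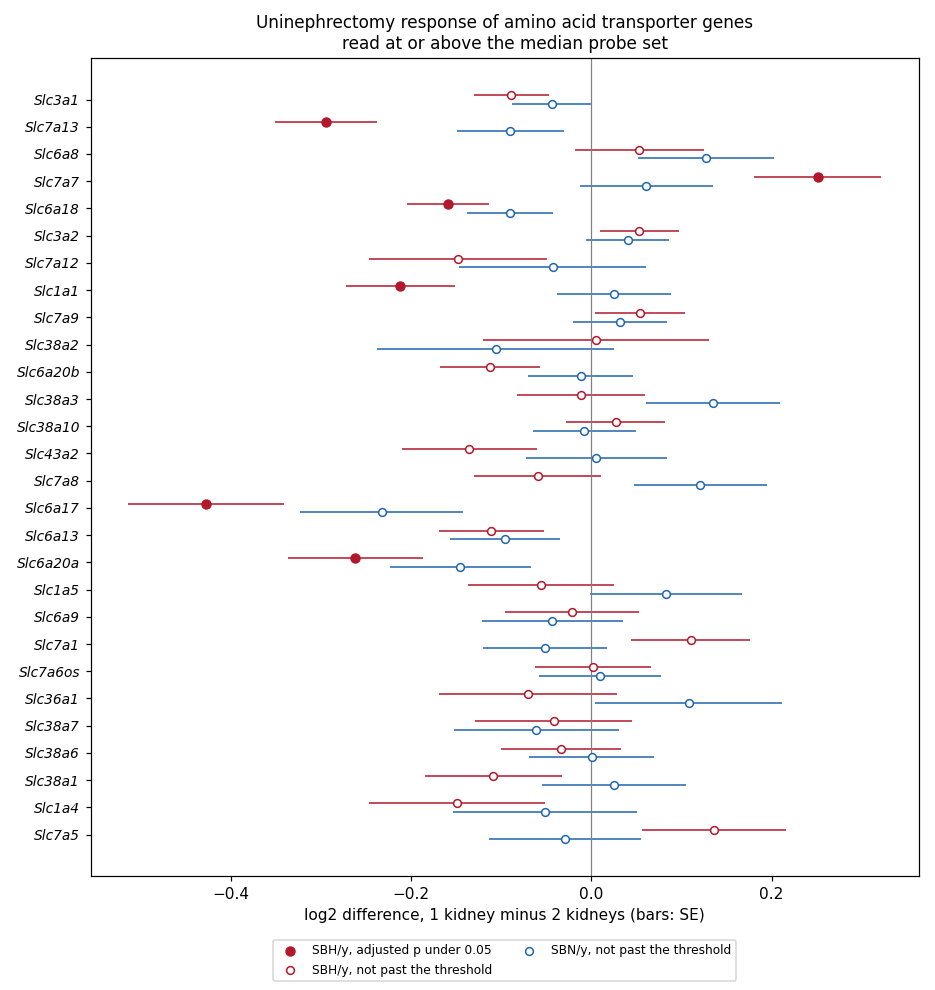
Log2 difference of 1 minus 2 kidneys (points, with SE bars) for the 28 members at or above the median probe set, in SBH/y (red) and SBN/y (blue). Filled points passed an adjusted p of 0.05: they are the 5 members that fell and Slc7a7, which rose, all in SBH/y.

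In SBN/y no member passed after uninephrectomy (limma; 0 of 52, with 2 members at an unadjusted p under 0.05), beside 0.253% of all genes. Slc6a17 had an unadjusted p of 0.0163 and read 7.56 to 7.81 with 1 kidney, against 7.97, 7.83, 8.02, 7.81 and 7.85 with 2 kidneys, a difference of -0.23 ± 0.09 (adjusted p 0.486). The other was Slc1a6, a cerebellar glutamate transporter with a mean of 3.02, in the range of background. Slc7a7, which rose in SBH/y, differed by 0.06 ± 0.07. The test of the difference between the strains' responses called 0 of 52 members (limma, 3 at an unadjusted p under 0.05), beside 0.408% of all genes, 0.331% in the positive and 0.0774% in the negative direction. Slc7a13 differed between the responses by -0.20 ± 0.08 (adjusted p 0.471), so its response in SBH/y was not shown to differ from that in SBN/y.

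Between the strains with 2 kidneys, SBH/y kidneys carried more signal of Slc7a12 and of the glutamine carrier Slc38a3 and less of Slc6a17 and Slc7a13. These 4 of 52 members (7.69%), 2 higher and 2 lower, stand beside 11% of all genes, 5.5% higher and 5.54% lower. The median difference of the members was 0.02, against 0.01 for all genes. With 1 kidney, 10 of 52 members (19.2%) passed, 3 higher and 7 lower, beside 17.7% of all genes, 10.2% higher and 7.48% lower. At or above the median probe set, 9 of 28 members passed with 1 kidney, beside 22.8% of such genes, and 4 of 28 with 2 kidneys, beside 14.3%. The strains' arrays did not overlap for 9.72% of all genes with 2 kidneys and for 9.81% with 1 kidney. The median of the members was -0.03, against 0.01 for all genes. The comparison with 1 kidney and that of uninephrectomy in SBH/y share the SBH/y arrays with 1 kidney, so their values are not independent of each other.

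Slc7a12, a carrier of small neutral amino acids that in mouse was found in kidney, had the largest strain difference. It has only 1 probe set, so no other reading of the gene could be compared. With 2 kidneys it read 9.91 to 10.20 with a median of 10.14 in SBH/y, against 9.38, 9.14, 9.43, 9.37 and 9.25 in SBN/y. No SBH/y array fell as low as any SBN/y array, and the signal was higher by 0.78 ± 0.10, or 1.72-fold (adjusted p 3.72e-06). With 1 kidney it read 9.57 to 10.23 with a median of 10.05 in SBH/y, against 9.06 to 9.55 with a median of 9.22 in SBN/y, higher by 0.68 ± 0.10, or 1.6-fold (adjusted p 1.06e-05). Its difference after uninephrectomy was -0.15 ± 0.10 in SBH/y and -0.04 ± 0.10 in SBN/y, neither past the threshold. Its promoter is printed because of this strain difference. Marked in it are the letters GTTAAT, part of the motif bound by hepatocyte nuclear factor 1, a regulator of proximal tubule genes. The 250 bases before the start (RefSeq, GRCr8, minus strand, chr2:88868104-88868353), with those letters in capitals at position -88 from the start, are the following.
Slc7a12: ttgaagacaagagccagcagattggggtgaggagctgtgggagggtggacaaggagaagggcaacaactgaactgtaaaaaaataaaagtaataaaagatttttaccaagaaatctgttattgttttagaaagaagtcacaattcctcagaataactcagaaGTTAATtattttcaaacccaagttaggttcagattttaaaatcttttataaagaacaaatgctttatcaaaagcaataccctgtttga
The same letters lie at position -119 of Slc6a18, on the opposite strand (GRCr8, plus strand, chr1:31436508-31436568, motif in capitals).
Slc6a18: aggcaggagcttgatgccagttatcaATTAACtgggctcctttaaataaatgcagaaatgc
Of 45 promoters found for 40 members, 3 held GTTAAT on either strand within 250 bases before to 50 after the start, those of Slc6a18, Slc6a20b and Slc7a12, beside 7.45% of all 33469 promoters. This motif was picked with the values known, and a match is a description of the letters only.

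Slc38a3, the basolateral carrier that brings in glutamine for ammonia production, was the other member higher in SBH/y at both kidney numbers. It too has only 1 probe set. With 2 kidneys it read 8.26 to 8.51 with a median of 8.36 in SBH/y, against 8.02, 7.95, 7.72, 7.88 and 7.98 in SBN/y, and the groups did not overlap. The signal was higher by 0.45 ± 0.07, or 1.37-fold (adjusted p 8.11e-05). With 1 kidney it read 8.14 to 8.52 in SBH/y, against 7.80 to 8.24 in SBN/y, higher by 0.31 ± 0.07 over ranges that overlapped (adjusted p 0.00271). Slc38a2, another glutamine carrier and a target of Atf4, was 0.35 ± 0.13 apart with 1 kidney and did not pass (adjusted p 0.062). Of the 8 measured carriers of systems A, N and ASC, 1 was higher and 0 lower in each strain comparison, in both cases Slc38a3. Among all genes 5.5% were higher and 5.54% lower with 2 kidneys, and 10.2% and 7.48% with 1 kidney.

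Slc7a13 and Slc6a17 were lower in SBH/y at both kidney numbers. For Slc7a13 the difference was -0.19 ± 0.06 with 2 kidneys, with overlapping groups (adjusted p 0.0435), and -0.39 ± 0.06 with 1 kidney, where no SBH/y array reached the lowest SBN/y array (adjusted p 8.52e-06). The call with 2 kidneys was lost in 10 of 23 fits that left out an array and in 4 of 8 other alternative fits. For Slc6a17 the differences were -0.34 ± 0.09 with 2 kidneys (adjusted p 0.0138) and -0.53 ± 0.09 with 1 kidney (adjusted p 4.52e-05), with no overlap in either. Its other 4 probe sets differed by 0.04, -0.20, 0.04 and 0.20 with 2 kidneys and by 0.06, -0.15, -0.02 and 0.02 with 1 kidney, and none passed.

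With 1 kidney, the luminal carriers Slc1a1, Slc6a18 and Slc6a20a were also lower in SBH/y. With Slc7a13 they make 4 of the 8 measured luminal carriers, with 0 higher and a list median of -0.16. In this comparison 7.48% of all genes were lower and 10.2% higher. Slc1a1 was lower by a difference of -0.26 ± 0.06 (adjusted p 0.00248), and its other probe set gave -0.39 ± 0.06 (adjusted p 4.52e-05). Slc6a18 ranged from 9.57 to 9.67 in SBH/y, against 9.71 to 9.86 in SBN/y, a difference of -0.17 ± 0.05 with no overlap (adjusted p 0.0103). Slc6a20a ranged from 6.68 to 7.14 in SBH/y, against 6.87 to 7.35 in SBN/y, a difference of -0.22 ± 0.07 (adjusted p 0.0428). That call was lost in 9 of 23 fits that left out an array and in 4 of 8 other alternative fits. The gene's other probe set gave -0.02 (adjusted p 0.944). Slc7a9 leaned the other way without passing, at 9.44 to 9.57 in SBH/y, against 9.22 to 9.41 in SBN/y, a difference of 0.14 ± 0.05 (adjusted p 0.0683). With 2 kidneys the strain differences were -0.03 ± 0.06 for Slc1a1, -0.10 ± 0.05 for Slc6a18 and -0.11 ± 0.08 for Slc6a20a, none past the threshold. The other probe set of Slc6a20a gave 0.08 there.

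**Figure D3:**
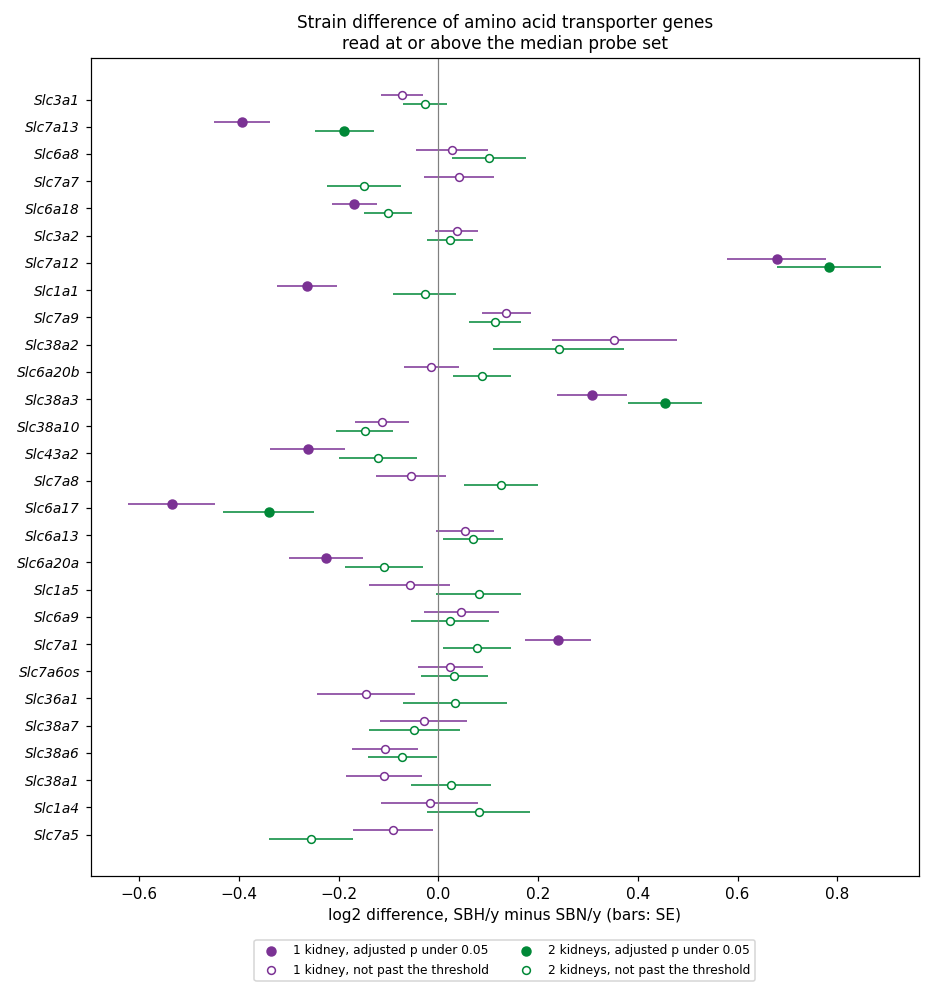
Log2 difference of SBH/y minus SBN/y (points, with SE bars) for the 28 members at or above the median probe set, with 1 kidney and with 2 kidneys. Filled points passed an adjusted p of 0.05. Slc7a12 lies farthest to the right at both kidney numbers, and Slc6a17 farthest to the left.

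Other members past the threshold with 1 kidney were Slc43a2, Slc7a1 and Slc6a4. Slc43a2, a basolateral uniporter that lets neutral amino acids leave the cell, read 7.42 to 7.97 in SBH/y, against 7.90 to 8.12 in SBN/y, a difference of -0.26 ± 0.07 (adjusted p 0.0157). Its other probe set gave -0.06 (adjusted p 0.752), and the call was lost without SBH/y 1-kidney replicate 1 (adjusted p 0.0565). Slc6a4, the serotonin transporter, was the only called member under the median probe set. It read 3.74 to 4.06 with a median of 4.00 in SBH/y, against 4.04 to 4.52 with a median of 4.32 in SBN/y, a difference of -0.39 ± 0.08 (adjusted p 0.00163). With 2 kidneys the differences were -0.12 ± 0.08 for Slc43a2 (adjusted p 0.444) and -0.19 ± 0.09 for Slc6a4 (adjusted p 0.219). The other probe set of Slc43a2 gave 0.02 there.

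Slc7a1, the general carrier of arginine and lysine, was higher in SBH/y with 1 kidney. It read 5.89 to 6.21 with a median of 6.07 in SBH/y, against 5.71 to 5.97 with a median of 5.83 in SBN/y. The signal was higher by 0.24 ± 0.07, or 1.18-fold (adjusted p 0.0123), and on a further probe set by 0.34 ± 0.10 (adjusted p 0.016). The dimmest of its 3 probe sets, with a mean of 2.88, went the other way without passing, at -0.06 ± 0.08 (adjusted p 0.725). With 2 kidneys the strains were 0.08 ± 0.07 apart (adjusted p 0.627). Slc7a1 is a known target of Atf4 in rat, and its promoter is printed with the amino acid response motif TGATGNAAN in capitals at position -30 from the start (RefSeq, GRCr8, plus strand, chr12:11664238-11664487).
Slc7a1: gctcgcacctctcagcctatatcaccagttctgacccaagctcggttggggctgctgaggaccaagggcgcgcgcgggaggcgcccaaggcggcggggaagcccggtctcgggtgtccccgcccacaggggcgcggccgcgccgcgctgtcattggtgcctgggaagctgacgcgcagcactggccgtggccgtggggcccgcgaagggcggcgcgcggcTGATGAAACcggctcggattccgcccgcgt
The motif was also found at position -142 of Slc38a1 (minus strand, chr7:129681509-129681569) and, on the opposite strand, at position -236 of Slc1a4 (minus strand, chr14:98761752-98761812), both neutral amino acid carriers.
Slc38a1: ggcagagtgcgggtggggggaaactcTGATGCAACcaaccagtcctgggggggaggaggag
Slc1a4: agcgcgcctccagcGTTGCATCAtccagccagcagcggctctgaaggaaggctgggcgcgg
These 3 of 45 member promoters stand beside 3.97% of all promoters of the same length. Slc38a1 and Slc1a4 passed in none of the 5 comparisons.

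The 41 members called in no comparison included several that were clearly measured. Slc6a8, which takes up creatine, had means of 9.95 ± 0.18 in SBH/y with 1 kidney, 9.89 ± 0.13 in SBH/y with 2 kidneys, 9.92 ± 0.08 in SBN/y with 1 kidney and 9.79 ± 0.08 in SBN/y with 2 kidneys (SD). Slc3a2 lay between 9.62 and 9.83 on every array. Slc6a20b, a neighbour and close relative of Slc6a20a, ranged from 8.60 to 8.87 in SBH/y with 1 kidney, against 8.85 to 8.94 in SBH/y with 2 kidneys, and did not pass. Slc7a8, a basolateral exchanger of neutral amino acids, and Slc6a13, a carrier of GABA and betaine, also did not pass. Slc7a5, the exchanger of large neutral amino acids, came nearest with 2 kidneys, at 4.42 to 4.82 in SBH/y against 4.72 to 4.99 in SBN/y, a difference of -0.26 ± 0.08 (adjusted p 0.0556). None of the 5 lysosomal or sensing members, among them Slc38a10, Slc38a9, Slc38a7 and Slc36a1, passed in any comparison. Slc38a10 had the smallest p of them (limma). Its strain difference was -0.15 ± 0.06 with 2 kidneys (adjusted p 0.124) and -0.11 ± 0.05 with 1 kidney (adjusted p 0.208). Of the 24 members under the median probe set, 23 passed in none, and their means lay between 2.2 and 4.58.

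Genes that work beside these carriers also passed in SBH/y. Of 7 measured partners and peptide carriers, 0 rose and 2 fell in SBH/y after uninephrectomy. Anpep, the brush border aminopeptidase, fell by 0.20 ± 0.05 (adjusted p 0.0214), and Slc15a1, a luminal peptide carrier, fell by 0.32 ± 0.08 (adjusted p 0.0242). Of 21 measured enzymes of amino acid use, 0 rose and 5 fell, with a list median of -0.07. Acadsb, which acts in isoleucine breakdown, fell by 0.80 ± 0.17 (adjusted p 0.00514), and Bcat2, the mitochondrial aminotransferase of branched-chain amino acids, by 0.38 ± 0.08 (adjusted p 0.0023). Arg2, Prodh and Gpt fell by 0.34, 0.32 and 0.29. Among the 16 genes of the Atf4 list, 3 rose and 0 fell, namely Atf4 (0.30 ± 0.08, adjusted p 0.016), Atf5 (0.24 ± 0.06, adjusted p 0.0234) and Asns, which makes asparagine (0.32 ± 0.09, adjusted p 0.0437). The list median was 0.16. Of all genes, 4.76% rose and 2.4% fell in this comparison. None of these lists had a member past the threshold in SBN/y or in the difference between the responses.

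Between the strains, Asns had the smallest adjusted p of the Atf4 list with 1 kidney, higher in SBH/y by 0.71 ± 0.09 with no overlap (adjusted p 1.68e-06). In that comparison 6 of 16 were higher and 1 lower, where 10.2% of all genes were higher and 7.48% lower. With 2 kidneys 3 were higher and 2 lower, where 5.5% and 5.54% of all genes were. The serine synthesis gene Psat1 was higher at both kidney numbers, by 0.26 ± 0.06 with 1 kidney (adjusted p 0.00441) and 0.34 ± 0.07 with 2 kidneys (adjusted p 0.000701). Of the 21 enzymes, 1 was higher and 8 were lower in SBH/y with 1 kidney, and 2 were higher and 3 lower with 2 kidneys, to be read against the same shares of all genes. Bckdhb, a subunit of the branched-chain keto acid dehydrogenase, was lower at both, with differences of -0.33 ± 0.05 with 1 kidney and -0.31 ± 0.06 with 2 kidneys. Hpd, of tyrosine breakdown, was higher at both, by 0.30 ± 0.06 and 0.41 ± 0.06. Ctns, the lysosomal exporter of cystine, was higher by 0.21 ± 0.07 with 1 kidney (adjusted p 0.0448) and 0.28 ± 0.07 with 2 kidneys (adjusted p 0.0115).

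Markers of other cells moved with uninephrectomy in SBH/y. All 8 measured leukocyte markers rose, with a median of 0.49, and their summed signal was 57.9 to 61.43 in SBH/y with 1 kidney, against 54.61 to 55.51 in SBH/y with 2 kidneys. Of 8 markers of injured tubule and fibroblasts 6 rose, with a median of 0.73 and sums of 56.03 to 60.56 with 1 kidney, against 49.65 to 51.25 with 2 kidneys. Of 14 proximal tubule markers 0 passed, with a median of -0.05, and of 6 collecting duct markers 0 rose and 4 fell. These counts stand beside 4.76% of all genes that rose and 2.4% that fell. In SBN/y the leukocyte sums were 54.3 to 57.25 with 1 kidney, against 54.07 to 54.48 with 2 kidneys, and 0 of 8 passed. The injury sums in SBN/y were 50.55 to 52.51 with 1 kidney, against 48.79 to 49.9 with 2 kidneys, and 1 of 8 rose. The 6 collecting duct markers leaned down in SBN/y as well, from -0.41 to -0.05 with a median of -0.16, against a median of -0.32 in SBH/y. In SBN/y 0 of 6 passed, and 3 had an unadjusted p under 0.05 (limma). Of 5 thick limb and distal tubule markers 0 passed after uninephrectomy in either strain. Among all genes 0.155% rose and 0.0985% fell in SBN/y. Between the strains with 1 kidney, 7 of 8 leukocyte and 6 of 8 injury markers were higher in SBH/y and 0 lower. Among all genes 10.2% were higher and 7.48% lower. With 2 kidneys 3 of 8 leukocyte markers were higher and 1 lower, and 1 of 8 injury markers was higher. There 5.5% of all genes were higher and 5.54% lower. Of 14 proximal tubule markers, 1 was higher and 1 lower in SBH/y with 1 kidney, and 2 were higher and 0 lower with 2 kidneys. Of 6 collecting duct markers, 2 were higher and 3 lower with 1 kidney, and 3 higher and 1 lower with 2 kidneys. The part of these cells in the transporter results was not tested.

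**Figure D4:**
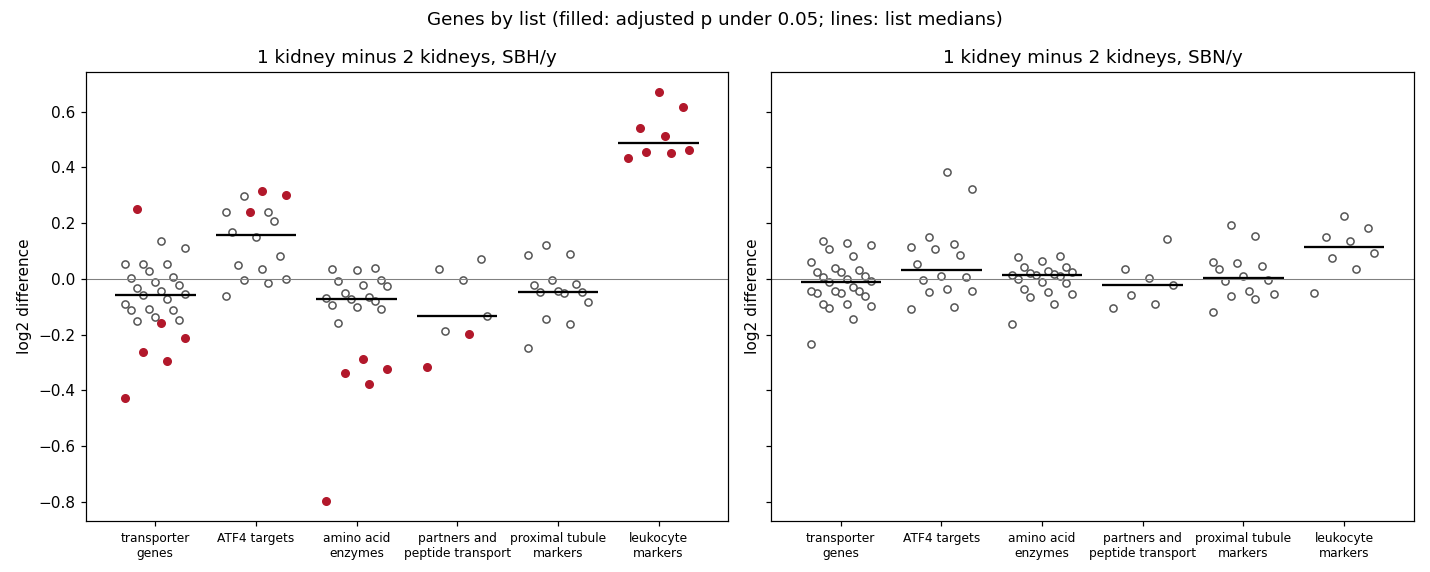
Log2 difference of 1 minus 2 kidneys for each gene (points) with the list median (bar), for the 28 amino acid transporter genes at or above the median probe set and for the lists of Atf4 targets, enzymes, partners, proximal tubule markers and leukocyte markers, in SBH/y and in SBN/y. Filled points passed an adjusted p of 0.05. In SBH/y the leukocyte median is 0.49 and the proximal tubule median -0.05.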

How the data were processed

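Total kidney RNA was hybridised to Affymetrix arrays, and the deposited log2 values, 1 per probe set and array, were made by the authors. The submitters' processing notes name GCOS and RMA without versions. RMA gives all arrays nearly the same distribution, so a change of total RNA could not be seen. Of 31099 probe sets, 57 controls were left out. The other 31042 entered a group-means model in limma 3.58.1 under R 4.3.3, and 5 contrasts were tested two-sided, with Benjamini-Hochberg adjustment over all probe sets and a threshold of 0.05. The number of arrays limits the precision, and p-values measure the spread between these arrays, which may be technical. A gene was read at its probe set with the highest mean. Named members were those past the threshold, the 12 with the highest means and some further members. Several of the further members were taken for having the smallest p in their role list, and not all such members were named. Other lists were given by counts with examples. Members and lists were chosen with earlier results of these data known. Alternatives changed the normalization, filter, variance model, samples, covariates or probe set, and the fit was tested on simulated data. Promoters came from RefSeq (GRCr8), used otherwise only for names and gene order.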

Additional observations from a re-analysis of the deposited data

Results flagged for a closer look

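An array was looked for that stood apart from its group in 68 sets of 17 members and their groups, and 2 were found, where chance alone gives about 1 in 20. Slc6a17 was lowest in SBH/y with 2 kidneys on replicate 3, at 7.23, while the next array read 7.57. Without that array, Slc6a17 fell after uninephrectomy in SBH/y by 0.49 (adjusted p 0.000412). Slc3a1 was highest in SBN/y with 1 kidney on replicate 4, at 12.5, while the next read 12.4.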

How the results depend on the processing

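Of the 20 calls of a member in a comparison, 13 passed in all 23 fits that left out an array and in the other alternatives run on the same probe set. The count of members called for uninephrectomy in SBH/y, 6, ranged from 2 to 6 when an array was left out. It was 2 with the groups compared fitted alone, 3 with the replicate number as a block and 3 with the GAPDH covariate, and the cause was not tested. The strain counts ranged from 3 to 5 with 2 kidneys and from 8 to 11 with 1 kidney when an array was left out. Read at the next probe set, which only 11 members have, the counts were 1 for strain with 2 kidneys, 3 for strain with 1 kidney and 2 for uninephrectomy in SBH/y, and Slc6a17 turned to 0.037 with 2 kidneys and 0.0625 with 1 kidney in the strain comparisons (adjusted p 0.925 and 0.826). With the block the strain counts were 4 and 9. Deviations of arrays with the same replicate number correlated between -0.171 and 0.259 in 22 pairs, so the numbers were not taken to pair them. The counts for SBN/y and for the difference between the responses were 0 in every fit run. Signal under the median probe set limits what 24 members can show.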

Other observations

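Slc6a8 gave a different picture at its other probe set, where SBH/y was higher by 0.31 ± 0.09 with 2 kidneys (adjusted p 0.0198) and by 0.24 ± 0.08 with 1 kidney (adjusted p 0.0474). At the brighter probe set the differences were 0.10 ± 0.07 and 0.03 ± 0.07, and neither passed. Slc38a2 had the largest spread within groups among the members at or above the median probe set (mean of the 4 group SDs 0.233). With 1 kidney it read 8.75 to 9.24 in SBH/y, against 8.38 to 9.30 in SBN/y, and without SBN/y 1-kidney replicate 2 the strain difference was 0.47 (adjusted p 0.00266).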
